A study of Mus musculus with 14 samples.

Results

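Epididymal white adipose tissue was compared between libraries that shared a diet but were assigned to different batches. All 9 normal diet libraries of the series of 14 were used, because their labels gave the diet and the batch: 4 libraries of batch 1 (B1_con1 to B1_con4) and 5 libraries of batch 2 (B2_con1 to B2_con5). Both groups came from wild type male C57BL/6J mice that had received the normal diet for 20 weeks, and the 5 Western diet libraries of the series belonged to batch 1. The labels gave a batch number but not what a batch was, so mice, dissection, RNA extraction, library preparation and sequencing run cannot be told apart here. Each library held 3′ end reads of total RNA, counted per gene, with totals of 10278970 to 13712254 counts. The labels numbered the libraries without saying that each came from a separate mouse, so the p-values below measure the spread between these libraries.

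The epididymal fat pad is a visceral depot that lies against the epididymis, the coiled duct in which sperm mature. Its lipid-filled adipocytes store triglyceride, release fatty acids and secrete adipokines, and they share the pad with macrophages, endothelial cells, smooth muscle of vessels, fibroblast-like progenitors and a mesothelial cover. Levels are given in CPM, counts relative to the scaled library total, and a level summed over a gene list shows how much of a component's RNA a library held. In bulk tissue, fewer cells of a type and less RNA per cell cannot be told apart.

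Libraries of batch 1 stood apart from the others and from each other. B1_con1 held the RNA of epididymis: the 36 genes of the epididymis list took 16.6% of its counts (95% Wilson interval 16.58 to 16.62%), against 0.004819% or less in each of the other 8 libraries. B1_con4 held counts for 7999 genes, against 11348 to 13702 in the other 8 libraries. List counts below are given with all 9 libraries and, where they moved, without these libraries. Without B1_con1, 5.72% of all genes tested were higher and 3.24% lower in batch 2 at an unadjusted p under 0.05, and without B1_con4 6.25% and 6.76%.

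In B1_con1, genes of the epididymal epithelium were among the most abundant of the library. Gpx5, a secreted glutathione peroxidase of the epididymis (mm10 chr13:21286429-21292686, minus strand), reached 128613 CPM in B1_con1, 0 in B1_con2, 19.5 in B1_con3, 6.73 in B1_con4, and 1.01 to 14.9 in batch 2. Only the 45S ribosomal precursor Rn45s, which made up 17.4 to 25.03% of the counts of every library, had more counts there. Spag11b, a defensin-like protein of the epididymis, was at 24208 CPM, Lcn5, an epididymal lipocalin (chr2:25657952-25662230, plus strand), at 13451 CPM, and Adam7, a membrane protein of epididymal epithelium and sperm, at 12098 CPM. In the other 8 libraries Spag11b reached 1.11 CPM at most, Lcn5 2.23 CPM and Adam7 12.3 CPM. Genes at 20 CPM or more in B1_con1 with at most 3 counts in each of the other 8 libraries were led by Defb20, Teddm1a, Lcn9, Defb30 and Lcn8. Genes seen in this way in 1 library alone numbered 5 in B1_con2, 2 in B1_con3, 8 in B1_con4 and 0 in each batch 2 library.

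The promoter windows of Gpx5 and Lcn5, abundant epididymal genes of B1_con1, are shown with that of Thrsp, a lipogenic gene described below, because these genes carry the epididymal and the lipogenic difference. The sequences are from RefSeq (GRCm38.p6) and run 5′ to 3′ on the gene's strand from 250 bases before to 50 bases after the start. Capitals mark every match, on either strand, to the TATA box core TATAAA, to the E-box written CACGTG, to the CCAAT box, and to the androgen response half-site written AGAACA. The windows are chr13:21292637-21292936 for Gpx5 (minus strand), chr2:25657702-25658001 for Lcn5 (plus strand) and chr7:97417501-97417800 for Thrsp (minus strand).
Gpx5: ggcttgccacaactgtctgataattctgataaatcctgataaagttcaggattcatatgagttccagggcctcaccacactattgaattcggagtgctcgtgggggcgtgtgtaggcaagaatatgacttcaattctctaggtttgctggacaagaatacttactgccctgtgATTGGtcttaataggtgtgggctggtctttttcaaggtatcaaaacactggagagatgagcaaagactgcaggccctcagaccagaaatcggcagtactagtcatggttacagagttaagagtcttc
Lcn5: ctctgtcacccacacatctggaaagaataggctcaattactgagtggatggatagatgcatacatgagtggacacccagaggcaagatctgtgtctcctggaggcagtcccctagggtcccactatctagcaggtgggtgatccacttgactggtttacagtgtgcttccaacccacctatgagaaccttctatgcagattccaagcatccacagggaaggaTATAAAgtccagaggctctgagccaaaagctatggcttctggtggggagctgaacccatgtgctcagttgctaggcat
Thrsp: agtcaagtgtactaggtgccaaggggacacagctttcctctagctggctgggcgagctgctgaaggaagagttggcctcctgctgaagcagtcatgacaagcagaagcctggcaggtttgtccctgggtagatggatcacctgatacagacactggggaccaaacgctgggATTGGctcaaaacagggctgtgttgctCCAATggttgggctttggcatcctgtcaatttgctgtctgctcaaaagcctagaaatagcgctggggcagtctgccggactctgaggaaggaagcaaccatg
Lcn5 held 1 TATAAA match, and Gpx5 and Thrsp held CCAAT matches. Among all 32851 promoter windows of the same length, 13.6% held TATAAA, 37.4% held CCAAT, 7.15% held CACGTG and 19% held AGAACA on either strand.

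B1_con3 shared a smaller part of this signal with B1_con1. The 9 genes of the germ cell list summed to 2748 CPM in B1_con1 and 122 CPM in B1_con3, against 2.3 CPM in B1_con2, 0 in B1_con4 and at most 1.8 CPM in batch 2. Prm1, a protamine that packs sperm DNA, was at 887 CPM in B1_con1, 58.0 CPM in B1_con3 and 0 in the remaining 7 libraries. In all, 27 genes reached 10 CPM in both B1_con1 and B1_con3 with at most 3 counts in each other library, while each of the other 35 pairs of libraries shared at most 1 such gene. They included Epcam and Cdh1, adhesion proteins of epithelium, and Dynlrb2, Rsph4a and Rsph1, parts of motile cilia and flagella. The epididymis list summed to 45.7 CPM in B1_con3, against 2.87 to 30.6 CPM in batch 2.

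B1_con2 carried transcripts of another kind. A list of 14 genes expressed chiefly in liver, drawn up after their values were seen, summed to 1088 CPM in B1_con2, against 7.55 to 187 CPM in the other 8 libraries. Of the 13 listed genes with more than 3 counts in any library, all 13 were highest in B1_con2, which is no separate support for a list so chosen. B1_con4 shared part of the signal. Serpina1a, Serpina1b and Serpina1c of the list were at 20.3 to 29.1 CPM in B1_con4 and 31.8 to 39.9 CPM in B1_con2. In batch 2 they reached at most 3.44 CPM. Multiple alignments were counted, so these related Serpina1 genes may share reads. In B1_con4 6 of the 14 genes had more than 3 counts, and Apoa1 was at 0 CPM. Besides the Serpina1 genes these were Ttr, Fgb and Alb. Ttr was at 12.7 and Fgb at 14.1 CPM there, against at most 2.23 and 3.14 CPM in batch 2. Alb was at 87.9 CPM there, inside the range of batch 2. Apoa1, the main protein of high-density lipoprotein, was at 124 CPM in B1_con2 and at most 5.27 CPM elsewhere. Alb, serum albumin, was at 509 CPM in B1_con2 and 7.55 to 94.9 CPM elsewhere. The 5 genes that reached 20 CPM in B1_con2 with at most 3 counts in each other library were Fabp1, Hamp, C8a, Mug1 and Plg, of the same kind.

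**Figure D1:**
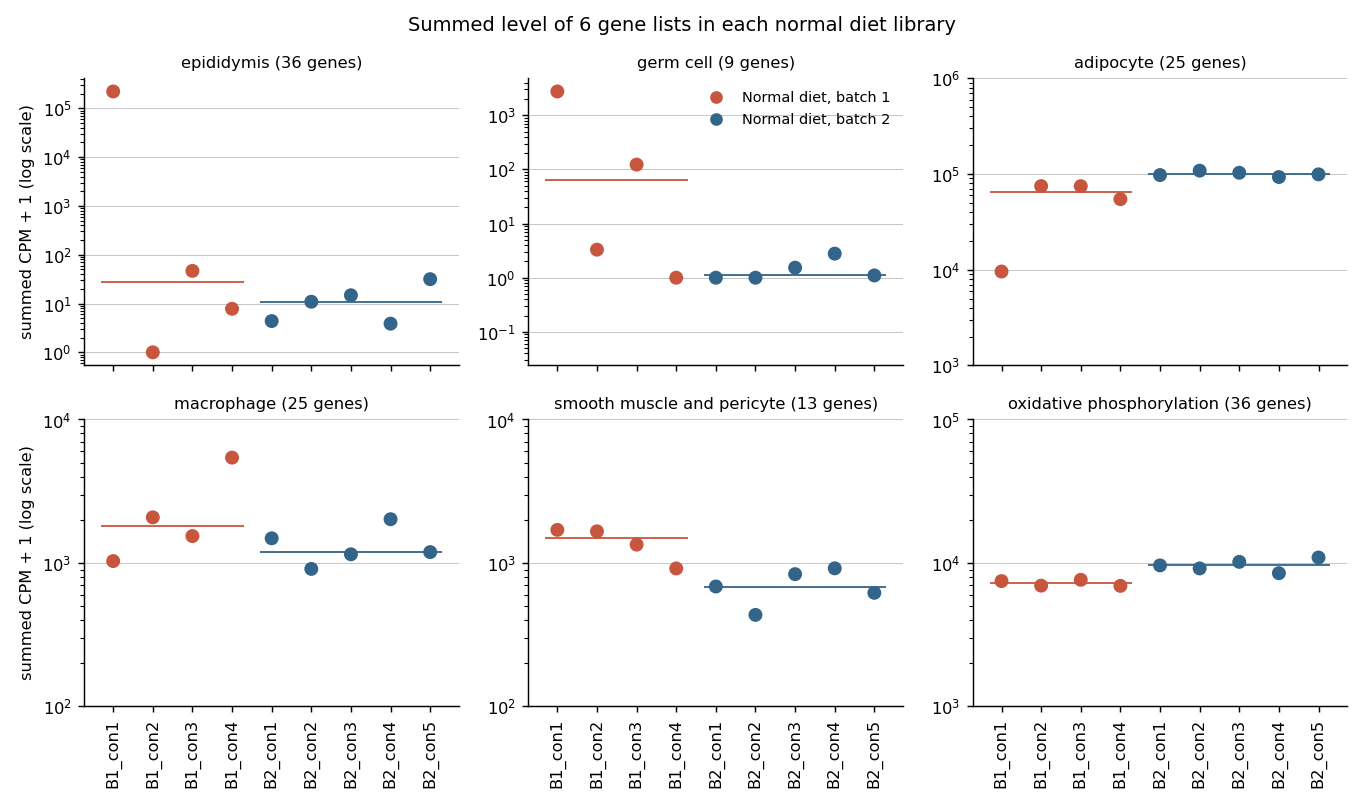
Summed level of 6 gene lists (vertical axis: summed CPM + 1, log scale) in each of the 4 batch 1 (red) and 5 batch 2 (blue) normal diet libraries; lines are batch medians. B1_con1 stands apart in the epididymis, germ cell and adipocyte panels and B1_con4 in the macrophage panel, while batch 2 libraries lie close together for adipocyte and oxidative phosphorylation genes.

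The fat pads of batch 1 also differed from each other in how many genes were found. Of 4283 genes at 20 CPM or more in every batch 2 library, 224 had 0 counts in B1_con4 (5.23%), 28 in B1_con1, 3 in B1_con2 and 0 in B1_con3. The same count for each batch 2 library against the other 4 of its batch was 0. Among the genes at 0 in B1_con4 were Tmem120a, Aup1, Ddx27, Ylpm1 and Topors, each at 58.3 CPM or more in every batch 2 library. The mean number of genes with at least 1 count was 11477 ± 2515 in batch 1 (SD, n = 4) and 12745 ± 492 in batch 2 (SD, n = 5), and the difference was smaller than the spread within batch 1 (exact permutation test, two-sided, p = 0.397). Few genes had low counts: those with 1 to 9 counts were 5.57 to 7.77% of the genes detected in each library. The reads carried no molecular identifiers here, so intervals cover counting error only.

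**Figure D2:**
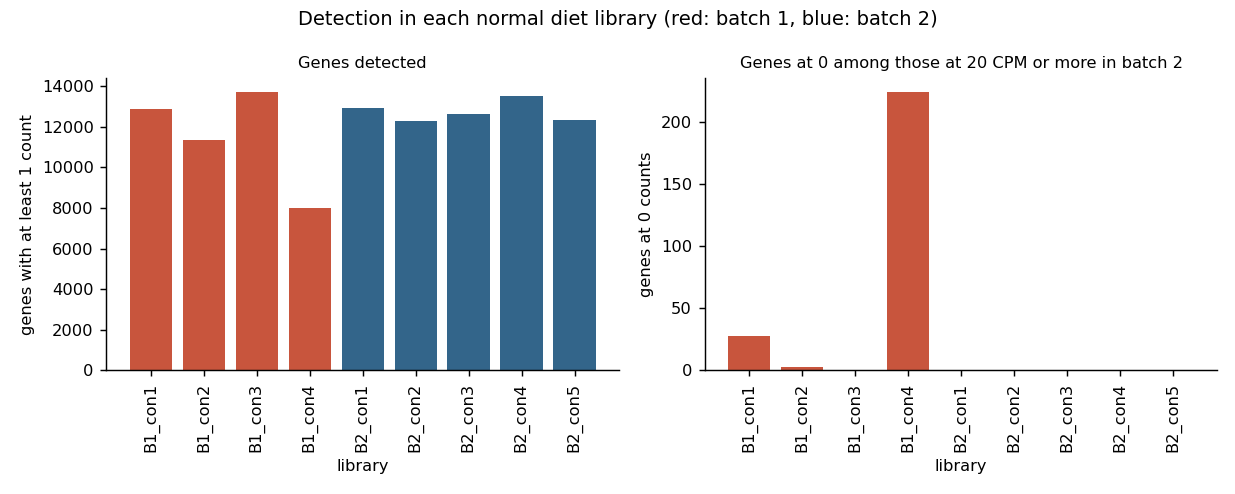
Left, genes with at least 1 count in each library; right, genes at 0 counts among those at 20 CPM or more in every batch 2 library (for a batch 2 library, in the other 4). B1_con4 holds 7999 genes and lacks 224 of the 4283 reference genes, and all 5 batch 2 libraries lack 0.

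Over all genes tested, batch 2 libraries resembled each other more than batch 1 libraries did. Pearson's r of log2(CPM + 1) across genes was 0.89 to 0.93 for the 10 pairs within batch 2 and 0.56 to 0.82 for the 6 pairs within batch 1. B1_con3 correlated with batch 2 at 0.86 to 0.90, higher than with any library of its own batch (0.70 to 0.82). These correlations run over genes, which are not independent replicates, and carry no test. The biological coefficient of variation, the typical relative spread of a gene between libraries, was 1.39 in batch 1 and 0.588 in batch 2 when each was fitted alone, and 0.980 in batch 1 without B1_con1 and B1_con4.

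**Figure D3:**
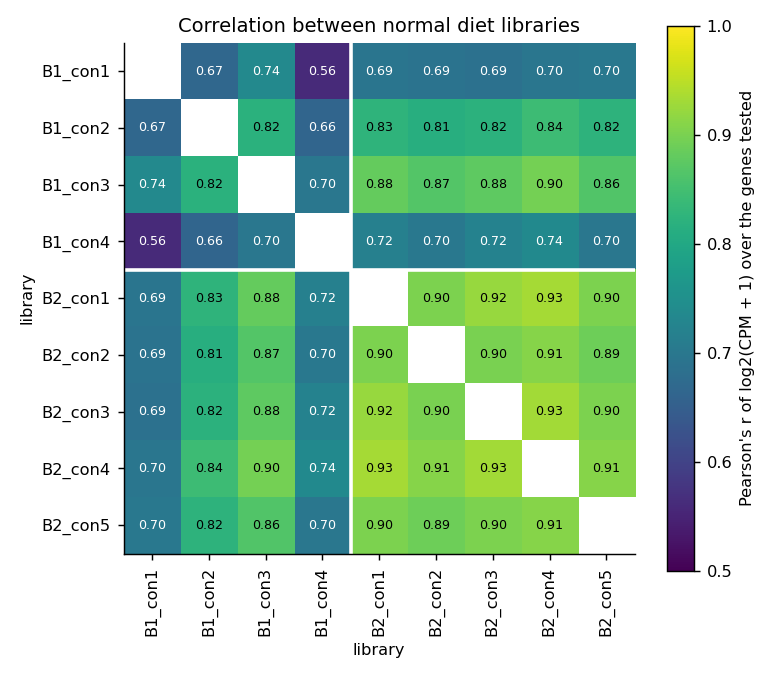
Pearson's r of log2(CPM + 1) over the genes tested for each pair of the 9 normal diet libraries, with white lines between batches. Pairs within batch 2 lie at 0.89 to 0.93, pairs within batch 1 at 0.56 to 0.82.

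No gene passed a false discovery rate (FDR, Benjamini-Hochberg) of 0.05 between the batches. The edgeR quasi-likelihood test of 12106 genes gave 0 calls (0% of genes tested), with a lowest FDR of 0.375. At an unadjusted p under 0.05 it gave 895 genes, 466 higher in batch 2 (3.85%) and 429 lower (3.54%). With DESeq2 size factors in the same test the split was 369 higher and 591 lower, and the median log2 fold change of all genes was -0.10 in place of 0.00. The split was 1327 higher and 262 lower in limma-voom, 1157 and 326 with limma on the deposited log2 values, 566 and 1323 without a filter on low counts, and 1005 and 474 without B1_con3. At an FDR of 0.05 limma-voom gave 0 genes, also with library quality weights, and DESeq2 gave 111 genes, 51 higher and 60 lower. In 487 genes every batch 2 library lay above every batch 1 library (4.02%), and in 143 every batch 2 library lay below (1.18%). Values named below are from the edgeR test unless another fit is given.

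Among the 10 genes of lowest p on the higher side, 4 had counts in every library of both batches. Bscl2 encodes seipin, which shapes lipid droplets (chr19:8837467-8848683, plus strand). It was at 63.4, 87.0, 116 and 70.0 CPM in B1_con1 to B1_con4 and at 192, 190, 201, 211 and 293 CPM in B2_con1 to B2_con5. The batches did not overlap, and the log2 fold change was 1.37 ± 0.26 (SE), with an FDR of 0.375. Sspn, a membrane protein of the dystrophin complex, was at 56.9 to 93.4 CPM in batch 1 and 139 to 187 CPM in batch 2. D10Jhu81e, which was at 38.5 to 84.2 CPM in batch 1 and 118 to 163 CPM in batch 2, is named by the rule alone. Cox5b, a subunit of cytochrome c oxidase, was at 68.7 to 121 CPM in batch 1 and 154 to 277 CPM in batch 2, a log2 fold change of 1.17 ± 0.26 (SE) with an FDR of 0.445.

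The remaining 6 of the 10 (Disp2, Mterf2, Gm9696, Slc35a2, Odf3l1 and Lysmd4) had 0 counts in all 4 batch 1 libraries. Disp2, a relative of the Hedgehog transporter Dispatched, was at 15.5, 7.17, 18.2, 7.21 and 3.14 CPM in B2_con1 to B2_con5, at least 38.5-fold higher than a floor of 3 counts per library, a bound that covers counting error only and not a loss of genes such as that in B1_con4. In total 19 genes had 0 counts in each batch 1 library and at least 10 counts in each batch 2 library, with batch 2 means of 2.37 to 10.2 CPM. All 19 had more than 3 counts in at least 1 Western diet library of batch 1, and 1 of the 19 had them in all 5. In the opposite direction 0 genes were at exactly 0 in each batch 2 library with at least 10 counts in each batch 1 library. A looser rule of at most 3 counts in each batch 2 library gave 1 gene, Tmem132b, a brain-enriched membrane protein, which was at 15.6, 7.75, 8.84 and 3.99 CPM in batch 1 and at 0.0775 CPM or less in batch 2.

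On the lower side, a matrix enzyme, endocytic and membrane proteins were among those of lowest p. Lox, the lysyl oxidase that cross-links collagen and elastin, was at 82.0, 208, 112 and 168 CPM in batch 1 and at 42.3, 32.0, 52.9, 41.0 and 31.9 CPM in batch 2. Every batch 1 library lay above every batch 2 library. The log2 fold change was -1.83 ± 0.31 (SE), with an FDR of 0.375, and the exact permutation test gave 0.00794, the smallest p that 4 against 5 libraries allow, as for 541 of the 12106 genes (lowest adjusted permutation p 0.178). Dab2, an endocytic adaptor, was as separate, at 139 to 172 CPM in batch 1 and 23.2 to 63.3 CPM in batch 2 (log2 fold change -1.66 ± 0.29, FDR 0.375). Litaf, a lysosomal membrane protein, was at 72.7 to 191 CPM against 22.7 to 41.8 CPM, and Clic1, an intracellular channel protein, at 88.9 to 276 CPM against 44.97 to 72.4 CPM.

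Other genes on that side lay at uneven levels within batch 1. Rnf128, a ubiquitin ligase, was at 2153 CPM in B1_con1, 19.7 in B1_con2, 146 in B1_con3 and 200 in B1_con4, against 4.45 to 13.4 CPM in batch 2. Cd9, a tetraspanin, was at 171, 41.1, 44.7 and 94.4 CPM in batch 1 and at 9.52 to 19.6 CPM in batch 2. Adgrg1, an adhesion G protein-coupled receptor, was at 305, 110, 170 and 51.0 CPM in batch 1 and 25.97 to 54.3 CPM in batch 2, so that B1_con4 lay inside the range of batch 2. Sp4, a zinc finger transcription factor, was at 8.51 to 44.96 CPM in batch 1 and 0.717 to 3.05 CPM in batch 2. All 20 genes of lowest p passed an adjusted p of 0.05 in DESeq2, and 19 of them did not overlap between the batches. Of all genes tested, 4.02% lay higher and 1.18% lower in batch 2 without overlap. The 20 genes were chosen by their p in these same libraries, so neither count is separate support.

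Adipocyte genes lay higher in batch 2, though unequally. Of the 25 adipocyte genes, all tested, 9 were higher at an unadjusted p under 0.05 and 0 were lower (3.85% and 3.54% of all genes tested), and the median log2 fold change was 1.02, against 0.00 for all genes. No adipocyte gene passed an FDR of 0.05. The 25 genes summed to 9572 CPM in B1_con1, 74887 in B1_con2, 74801 in B1_con3 and 54717 in B1_con4, and to 93126 to 108590 CPM in batch 2. Without B1_con1 the median was 0.65, against 0.10 for all genes, and 13 of 25 were higher and 0 lower at an unadjusted p under 0.05 (5.72% and 3.24% of all genes). Without B1_con1 and B1_con4 the median was 0.42 with 12 higher and 1 lower (6.76% and 5.12% of all genes). The epididymis list was at 221900 CPM in B1_con1, the library lowest for adipocyte genes, and at 0 to 45.7 CPM in the other 8, and its part in the difference that rests on B1_con1 was not tested.

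Several genes of fatty acid and triglyceride synthesis lay higher in batch 2, with none past the FDR threshold with all 9 libraries. Thrsp, of the lipogenesis list and a nuclear protein that promotes lipogenic transcription, was at 1.33, 133, 218 and 178 CPM in B1_con1 to B1_con4 and at 1076, 1077, 1160, 587 and 1005 CPM in B2_con1 to B2_con5 (its promoter is shown above). Every batch 2 library lay above every batch 1 library, and the log2 fold change was 2.89 ± 0.89 (SE, FDR 0.461). Without B1_con1 the difference passed the threshold (log2 fold change 2.48, FDR 0.0345), and it was the 1 gene that did so.

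Dgat2, the enzyme that makes triglyceride from diacylglycerol (chr7:99153663-99182713, minus strand), was at 3.11, 269, 232 and 506 CPM in batch 1 and at 1096, 981, 1224, 1100 and 1139 CPM in batch 2. Again the batches did not overlap, and the log2 fold change was 2.13 ± 0.85 (SE, FDR 0.595). Agpat2, which makes phosphatidic acid, was at 14.6, 153, 176 and 265 CPM in batch 1 and 330 to 562 CPM in batch 2. Gpd1, which supplies glycerol 3-phosphate, was at 113, 211, 295 and 345 CPM in batch 1 and 489 to 777 CPM in batch 2, a log2 fold change of 1.27 ± 0.33 (SE, FDR 0.445).

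Of the lipid droplet and secreted adipocyte genes, Plin1, Plin4, Adipoq and Cfd did not overlap between the batches, while Cidec of the lipid droplet and the adipokines Lep and Retn did. Plin1, the perilipin that coats the droplet, was at 40.7, 361, 395 and 202 CPM in batch 1 and 597 to 783 CPM in batch 2. Adipoq, the adipokine adiponectin, was at 907, 7065, 7535 and 6124 CPM in batch 1 and 11450 to 16941 CPM in batch 2. Cfd, adipsin, was at 1292, 5855, 8413 and 785 CPM in batch 1 and at 8434 to 17581 CPM in batch 2, with B1_con3 just below the lowest batch 2 library. Car3, carbonic anhydrase of adipocytes, was at 549 to 8760 CPM in batch 1 and 14688 to 19676 CPM in batch 2.

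For other adipocyte genes the batches overlapped. Fabp4, the fatty acid binding protein and the most abundant of the list, was at 2546, 23802, 22184 and 17171 CPM in batch 1 and 16145 to 22525 CPM in batch 2, a log2 fold change of 0.35 ± 0.69 (SE, FDR 0.984). Cd36, the fatty acid transporter, was at 2686 to 3917 CPM in B1_con2 to B1_con4 and 2505 to 3151 CPM in batch 2. Pck1, of glycerol formation, was at 71.8, 2289, 2538 and 693 CPM in batch 1 and 629 to 1769 CPM in batch 2. Against the mean of B1_con2 and B1_con3, the batch 2 mean of the adipocyte genes ranged from 0.621-fold (Pck1) to 4.42-fold (Dgat2), with a median of 1.33-fold, and B1_con4 ranged from 0.0382-fold (Adrb3) to 2.07-fold (Pparg). B1_con1 held these genes at a median of 0.123-fold.

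**Figure D4:**
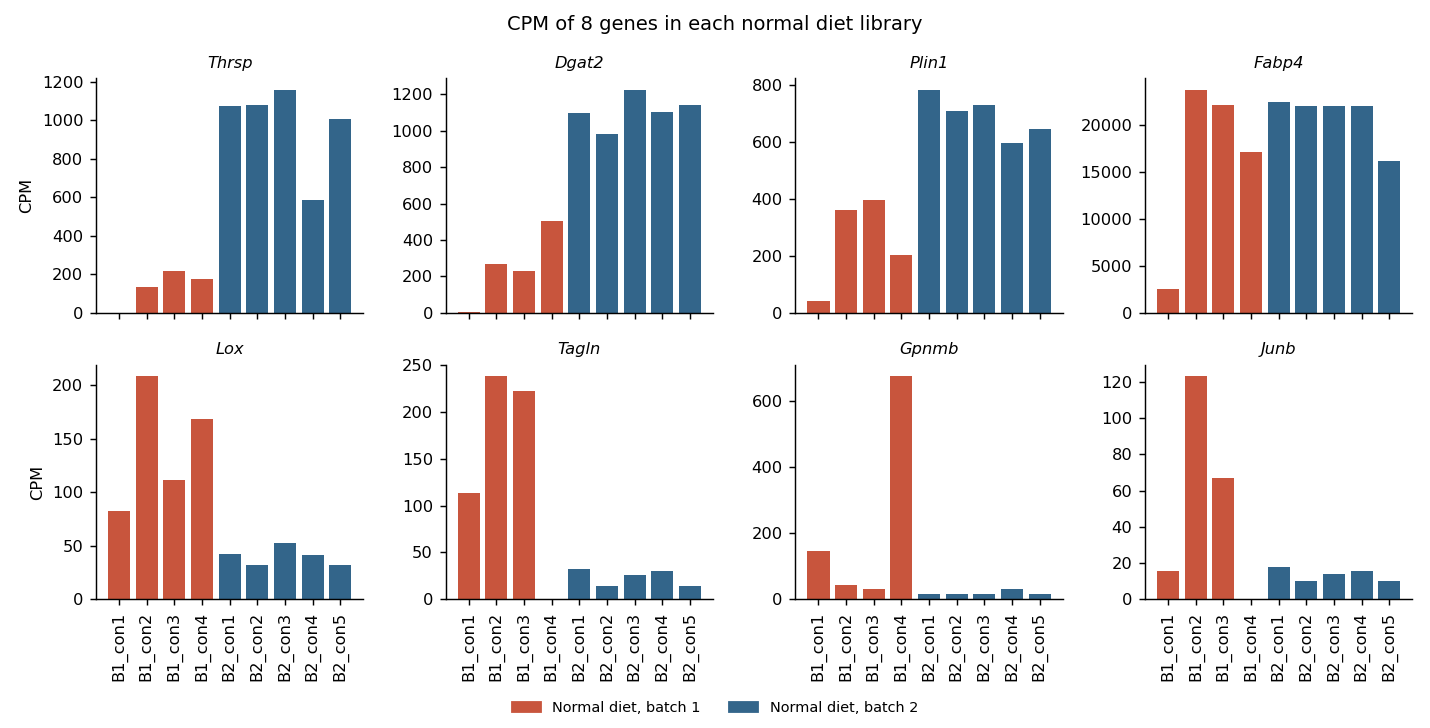
CPM (vertical axis, linear) of 8 genes in each of the 4 batch 1 (red) and 5 batch 2 (blue) libraries. Thrsp, Dgat2 and Plin1 lie higher in every batch 2 library and Lox lower, Fabp4 overlaps, Gpnmb is highest in B1_con4 at 677 CPM, and Tagln and Junb are high in B1_con2 and B1_con3 but near 0 in B1_con4.

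Genes of the respiratory chain and of fuel use also lay higher in batch 2, with none past the FDR threshold. Of 36 nuclear genes for subunits of oxidative phosphorylation, the mitochondrial chain that makes ATP, 14 were higher in batch 2 at an unadjusted p under 0.05 and 0 were lower (3.85% and 3.54% of all genes), with a median log2 fold change of 0.54. This count was 15, 13 and 13 without B1_con1, without B1_con4 and without both. The sum was 7475, 6945, 7629 and 6922 CPM in batch 1 and 8486 to 10911 CPM in batch 2, without overlap. The B1_con1 sum lay within the range of the other batch 1 libraries, but it includes 1475 CPM of Cox6c. B1_con1 was the lowest of batch 1 for 15 of the 36 genes, and B1_con4 for 14. Atp5o, of the ATP synthase, was at 199 to 268 CPM in batch 1 and 337 to 490 CPM in batch 2, and Sdhb, the iron-sulfur subunit of succinate dehydrogenase, at 184 to 261 CPM and 322 to 422 CPM. Cox6c was an exception, with 1475 CPM in B1_con1 and 370 to 725 CPM in the other 8 libraries.

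Of 15 genes of de novo lipogenesis, 5 were higher at an unadjusted p under 0.05 and 1 was lower (3.85% and 3.54% of all genes), and their median log2 fold change was 0.76. Fasn, the fatty acid synthase, was at 125.7, 180, 224 and 402 CPM in batch 1 and at 532, 504, 720, 319 and 772 CPM in batch 2, where B2_con4 lay below B1_con4. Me1, the malic enzyme that yields NADPH, was at 33.0 to 213 CPM and 228 to 356 CPM. Scd1, a desaturase and the most abundant of the list, was at 1875, 10666, 11522 and 4002 CPM in batch 1 and at 4609 to 13065 CPM in batch 2, with overlap. The 1 lower gene was Elovl6, a fatty acid elongase, at 202 CPM in B1_con1 and 14.5 to 32.6 CPM in the other 8 libraries, and without B1_con1 the list had 6 higher and 0 lower.

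Of 12 genes of insulin signaling, 4 were higher at an unadjusted p under 0.05 and 0 lower (3.85% and 3.54% of all genes), and without B1_con4 3 were higher and 1 lower. Slc2a4, the insulin-responsive glucose transporter, was at 14.6, 86.3, 52.1 and 46.2 CPM in batch 1 and 96.6 to 211 CPM in batch 2. Pik3r1, the regulatory subunit of PI 3-kinase, was at 51.9 to 216 CPM in batch 1 and 307 to 529 CPM in batch 2, and Akt2, the kinase downstream of it, at 21.3 to 112 CPM and 147 to 214 CPM. Of 15 tested genes of mitochondrial fatty acid oxidation, 4 were higher and 1 lower (3.85% and 3.54% of all genes). The lower gene was Cpt1a, the entry transferase, at 49.5 to 183 CPM in batch 1 and 31.9 to 70.1 CPM in batch 2. Without B1_con1, which held the highest Cpt1a level, 5 genes of this list were higher and 0 lower.

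Macrophage genes lay lower in batch 2, and their sum was highest in B1_con4. Of 24 macrophage genes tested of 25, 7 were lower at an unadjusted p under 0.05 and 0 were higher (3.54% and 3.85% of all genes), and the median log2 fold change was -0.49. The list summed to 1030, 2079, 1539 and 5423 CPM in B1_con1 to B1_con4 and to 908 to 2017 CPM in batch 2. Without B1_con1, 11 of 25 were lower and 0 higher, with a median of -0.74. Without B1_con4, 1 of 25 was lower and 1 higher (6.76% and 6.25% of all genes), with a median of -0.13. Gpnmb, a glycoprotein of lipid-laden macrophages, was at 147, 44.7, 31.1 and 677 CPM in batch 1 and at 15.3 to 30.5 CPM in batch 2, so that B1_con3 lay just above B2_con4.

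The high values of B1_con4 extended over markers of lipid-associated macrophages. Mmp12, macrophage elastase, was at 461 CPM in B1_con4 and at most 16.98 CPM in the other 8 libraries. Trem2, a lipid-sensing receptor, was at 141 CPM there and at most 8.39 CPM elsewhere. Cd68, a lysosomal glycoprotein, was at 334 CPM in B1_con4, 113 CPM in B1_con2 and 9.98 to 37.4 CPM in the others, while Cd163, a scavenger receptor of resident macrophages, was at 78.8 CPM in B1_con4, below the range of batch 2 (88.3 to 161 CPM). B1_con4 was also the library with 224 reference genes at 0, and the part of that loss in these values was not tested.

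Immune lists beyond macrophages did not share a direction. Antigen presentation genes lay mostly higher in batch 2, with 7 of 9 higher at any p and a median log2 fold change of 0.31. Without B1_con4 that median was 0.89, with 2 of 10 higher and 0 lower at an unadjusted p under 0.05 (6.25% and 6.76% of all genes). Of 9 tested genes of antigen presentation and dendritic cells, 0 passed an unadjusted p of 0.05, and their sum was 322, 277, 731 and 1644 CPM in batch 1 and 566 to 1279 CPM in batch 2. Cd74, the invariant chain, was at 71.8, 83.5, 154 and 574 CPM in batch 1 and 110 to 268 CPM in batch 2. Of 5 neutrophil genes tested 2 were lower and 0 higher at an unadjusted p under 0.05 (3.54% and 3.85% of all genes), against 1 lower and 1 higher of 6 without B1_con1 and 3 lower and 1 higher of 6 without B1_con4. The lower genes included S100a8, a calcium-binding alarmin, at 85.7 to 133 CPM in batch 1 and 5.67 to 65.3 CPM in batch 2. The neutrophil median log2 fold change was -1.01 with all 9 libraries and -1.40 without B1_con1 and B1_con4. The T and NK cell list was at 15.8 to 298 CPM in batch 1, where 277 CPM of the 298 CPM in B1_con1 came from Klrb1c, and at 20.9 to 26.6 CPM in batch 2. Of 13 B and plasma cell genes listed 1 was tested, and 0 of 6 mast cell genes tested passed an unadjusted p of 0.05.

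Several smooth muscle and matrix genes lay lower in batch 2. Of 13 smooth muscle and pericyte genes, 3 were lower and 0 higher at an unadjusted p under 0.05 (3.54% and 3.85% of all genes), with a median log2 fold change of -1.12. Without B1_con4, 5 were lower and 2 higher. The list summed to 1700, 1660, 1341 and 914 CPM in batch 1 and 434 to 916 CPM in batch 2, where B2_con4 lay just above B1_con4. Acta2, smooth muscle actin, was at 378, 647, 569 and 412 CPM in batch 1 and at 194, 48.8, 270, 370 and 159 CPM in batch 2, and the batches did not overlap. Myh11, smooth muscle myosin, was at 248, 45.1, 53.7 and 20.8 CPM in batch 1 and 1.82 to 19.01 CPM in batch 2. Tagln, an actin-binding protein of smooth muscle, was at 113, 238 and 222 CPM in B1_con1 to B1_con3, at 0.148 CPM in B1_con4 and at 13.98 to 32.6 CPM in batch 2.

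Of 20 extracellular matrix genes, 3 were lower and 0 higher at an unadjusted p under 0.05 (3.54% and 3.85% of all genes), with a median log2 fold change of -0.38. Without B1_con1, 5 were lower and 0 higher (median -0.64), and without B1_con4, 3 were lower and 1 higher (median -0.23). With all 9 libraries the lower genes besides Lox were Mmp14, a membrane-bound matrix protease, at 33.4 to 120 CPM in batch 1 and 14.8 to 24.4 CPM in batch 2, and Col1a1, a chain of type I collagen, at 77.0, 104, 96.5 and 438 CPM in batch 1 and 29.3 to 106 CPM in batch 2. Sparc, the most abundant of the list, was at 932, 5179, 3578 and 8653 CPM in batch 1 and 3099 to 5538 CPM in batch 2. Of 17 endothelial genes tested, 1 was lower and 0 higher at an unadjusted p under 0.05 (3.54% and 3.85% of all genes), with a median of -0.30. Without B1_con1 their median was -0.51 with 1 lower, and without B1_con4 -0.54 with 2 lower. Of 17 stromal progenitor genes tested, 0 had an unadjusted p under 0.05, with a median of 0.16, and of 0.55 without B1_con4.

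Immediate early genes, which respond to stress and growth factors within minutes, were high in B1_con2. Of 15 tested, 2 were lower in batch 2 at an unadjusted p under 0.05 and 0 higher (3.54% and 3.85% of all genes), against 4 of 16 lower without B1_con1 and 5 of 16 without B1_con4. The 2 genes were Egr2, a transcription factor, and Socs3, a feedback inhibitor of cytokine signaling. Egr1, a transcription factor of the same family as Egr2, was at 24.1, 188, 38.7 and 22.8 CPM in batch 1 and at 35.2, 0, 29.2, 8.76 and 6.59 CPM in batch 2. Junb, a part of the AP-1 transcription factor, was at 15.6, 123, 67.0 and 0 CPM in batch 1 and at 10.2 to 17.9 CPM in batch 2. The list summed to 1171 CPM in B1_con2, 566 CPM in B1_con3 and 251 to 423 CPM in batch 2, and to 312 CPM in B1_con1 and 313 CPM in B1_con4.

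**Figure D5:**
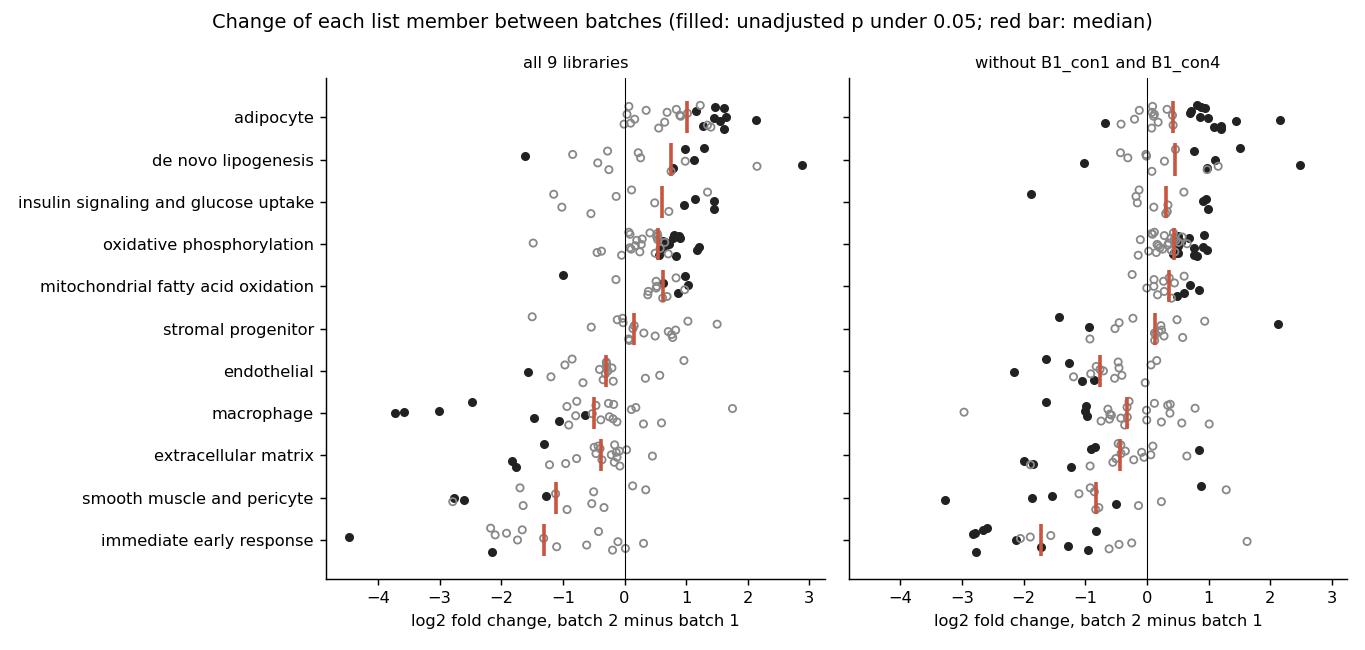
log2 fold change (horizontal axis, batch 2 minus batch 1) of each tested gene of 11 lists, with all 9 libraries (left) and without B1_con1 and B1_con4 (right); filled points have an unadjusted p under 0.05, open points do not, and red bars are medians. Adipocyte medians are 1.02 and 0.42, and immediate early medians are -1.31 and -1.71.

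With B1_con1 and B1_con4 left out, a comparison chosen for what those libraries showed, 28 of 13367 genes passed an FDR of 0.05, 11 higher in batch 2 (0.0823%) and 17 lower (0.127%). The higher genes included Dgat2 (log2 fold change 2.15 ± 0.21 SE, FDR 0.000609), Thrsp (2.49 ± 0.32, FDR 0.00447), Agpat2 (1.45 ± 0.24, FDR 0.0384) and Col15a1, a basement membrane collagen at 58.2 and 44.1 CPM in B1_con2 and B1_con3 against 154 to 322 CPM in batch 2. B1_con4, left out of this fit, had Col15a1 at 211 CPM, inside the range of batch 2.

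The lower genes included 1 gene of the smooth muscle list, Tagln, and 1 of the immediate early list, Junb. Tagln was at 238 and 222 CPM in B1_con2 and B1_con3, a log2 fold change of -3.28 ± 0.31 (SE, FDR 0.000609). Vegfa, the main growth factor of blood vessels, was at 400 and 292 CPM there and 84.1 to 104 CPM in batch 2 (log2 fold change -1.85 ± 0.20, FDR 0.00116). Junb (-2.79 ± 0.33, FDR 0.00314), Lox (-1.99 ± 0.28, FDR 0.0118) and Dab2 (-1.67 ± 0.31, FDR 0.0496) also passed. In B1_con1 and B1_con4 Vegfa was at 101 and 83.4 CPM, close to batch 2. Serpina1e, a plasma protease inhibitor made by liver, passed with 162 CPM in B1_con2, 5.18 CPM in B1_con3 and at most 1.74 CPM in batch 2. Others that passed were highest in B1_con1, among them Rnf128, Adgrg1, Map1b and Cldn2. Cldn2 was at 344 CPM in B1_con1, 3.66 in B1_con2, 36.5 in B1_con3 and 0 in batch 2. Pipox and Iyd were highest in B1_con3, at 39.6 and 25.5 CPM, and at 0 in batch 2. The part of the signal shared by B1_con1 and B1_con3 in these calls was not tested.

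In this 2 against 5 comparison, 10 of 17 immediate early genes tested were lower at an unadjusted p under 0.05 and 0 were higher (5.12% and 6.76% of all genes), with a median log2 fold change of -1.71. Endothelial genes were lower in 5 of 17, with a median of -0.76. The macrophage median was -0.32, with 4 of 25 lower. The liver list differed between the same libraries, at 1088 CPM in B1_con2 and 75.0 CPM in B1_con3, and its part in these differences was not tested.

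Within batch 2, where the libraries were most alike, the adipocyte sum had a coefficient of variation of 5.81% and that of oxidative phosphorylation 9.62%, against 31.6% for macrophage, 35.5% for antigen presentation, 35.6% for endothelial and 33.7% for de novo lipogenesis genes. B2_con4 was the highest of batch 2 for 18 of 25 macrophage, 13 of 17 endothelial and 14 of 20 extracellular matrix genes. It was the lowest for 18 of 36 genes of oxidative phosphorylation. Of 25 adipocyte genes, 8 were lowest in B2_con4, 7 in B2_con1 and 6 in B2_con5. Such ranks were not counted over all genes. B2_con2 was the lowest for 11 of 25 macrophage and 9 of 20 matrix genes. Csf1r, the receptor that macrophages need to survive, was at 224, 56.1, 120, 249 and 107 CPM in B2_con1 to B2_con5.

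Single genes also varied within batch 2. Lep, the adipokine leptin, was at 641 CPM in B2_con2 and 1607 to 2264 CPM in the other 4. Scd1 was at 9392, 4609, 8337, 5533 and 13065 CPM. The most variable genes at a mean of 10 CPM were Snora81, a small nucleolar RNA inside the host gene Eif4a2, at 13.8 to 385 CPM, Rnase2a, a secreted ribonuclease, at 0 to 36.9 CPM, and Egr1. Stab1, a scavenger receptor of resident macrophages, was at 24.2, 0.0969, 1.45, 18.6 and 18.2 CPM. Nt5dc2, which overlaps Stab1 on the opposite strand, had nearly the same values, and the counts of these genes cannot be told apart.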

How the data were processed

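Total RNA of mouse epididymal fat was sequenced from oligo-dT primed QuantSeq 3′ libraries (single-end reads). The authors aligned reads with Bowtie2 to mm10, counted unique and multiple alignments per gene with bedtools and scaled them by TMM with edgeR, per the labels and the study's methods; versions are not given in the sources used here, nor whether strand was used. The deposited table holds raw counts per gene and log2 values for 14 libraries. Counts of the 9 normal diet libraries were used; the deposited log2 values served in 1 alternative, and the Western diet libraries in another and to look up genes at 0.

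Of 23282 genes, 12106 passed filterByExpr. They were tested with edgeR 4.0.16 (glmQLFit, glmQLFTest, TMM factors, Benjamini-Hochberg, threshold 0.05) in R 4.3.3, batch 2 against batch 1, without covariates. CPM are relative to counts on tested genes, scaled by TMM factors. Correlations used log2(CPM + 1), as did exact two-sided permutation tests of single genes, run in R. Numbers of genes detected were tested likewise with scipy 1.17.1. The smallest possible p of these permutation tests is 0.00794. A floor of 3 counts corresponds to 0.215 to 0.333 CPM. Counts shared through multiple alignment or overlap cannot be assigned to 1 gene. Total counts differed little between libraries, but B1_con4 and, less so, B1_con1 lacked counts for genes abundant in batch 2, so that floor covers counting error only. No 2 libraries were duplicates: chi-square per degree of freedom was 34.9 or more for each pair within a batch.

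The comparison, gene lists and members were chosen with earlier results of these data known. Of 30 lists all are described by counts, medians or sums; no set test was run. Genes were named by these rules: among genes past the threshold without overlap the 10 of largest change in each direction at a mean of 10 CPM, or, with fewer than 5 past it, the 10 of lowest p in each direction; in each list, members past the threshold or the 2 of highest mean; the 10 most variable genes in each batch at a mean of 10 CPM; the 5 with most counts in each library. All other genes named, among them the genes of B1_con1, B1_con3 and B1_con2 and the members at unadjusted p under 0.05, were chosen after their values were seen. Alternatives were DESeq2 1.42.0, limma-voom 3.58.1, other scalings and filters, thinning, a replicate block and leaving out libraries. On simulated counts with 200 of 12106 genes changed by a log2 fold of 3, the same test recovered 171 at the spread of the 9 libraries, with 7 wrong calls. That change is larger than those of Bscl2, Lox and Dgat2, and smaller changes were not simulated. The simulated spread was that of all 9 libraries, although the biological coefficient of variation was 1.39 in batch 1 and 0.588 in batch 2. The share recovered may therefore not hold for these libraries. In the real counts Rnf128 had a log2 fold change of -6.36 with an FDR of 0.375.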

Additional observations from a re-analysis of the deposited data

Results flagged for a closer look

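Of 104 sets of values checked within a batch of 4 or 5 libraries, 10 had a highest or lowest library far from the others by Dixon's ratio, and chance flags about 1 in 20 sets. On the log2 scale of summed CPM, B1_con1 was far below the rest of batch 1 for adipocyte genes (13.2 against 15.7 to 16.2), skeletal muscle genes (4.18 against 6.92 to 7.39) and mitochondrial fatty acid oxidation genes (10.1 against 11.3 to 11.4), and above it for Schwann cell genes (4.16 against 3.5 to 3.6). B1_con4 was far below the rest for circadian clock genes (7.49 against 8.69 to 8.85) and above it for cell cycle genes (8.03 against 5.95 to 6.05).

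In batch 2, on the log2(CPM + 1) scale, Bscl2 was high in B2_con5 (8.2 against 7.57 to 7.73), Dab2 low in B2_con5 (4.6 against 5.63 to 6.01) and Gpnmb high in B2_con4 (4.98 against 4.03 to 4.09). Tmem132b was at 0.108 in B2_con4 and 0 in the other 4, which is 1 count in that library.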

How the results depend on the processing

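The count of 0 genes at an FDR of 0.05 was also 0 with other scaling factors, other filters on low counts, limma-voom, thinning and without Rn45s, and 0 to 2 when each library was left out in turn (Thrsp without B1_con1; Tagln and Map1b without B1_con4). It was 111 in DESeq2, 28 without B1_con1 and B1_con4 together, 1 in the fit of all 14 libraries (Rnf128) and 1 without B1_con1 and the epididymis list. That last fit is no separate check, because without B1_con1 only 1 gene of the epididymis list was tested. The count at an unadjusted p under 0.05 was 895; it was 1889 without a filter, 1589 in limma-voom, 1483 with limma on the deposited log2 values, 1401 with all 14 libraries, 1587 without B1_con1 and B1_con4, and 555 to 1659 leaving out 1 library, past 1.5 times without B1_con4 (1659), B1_con3 (1479), B2_con1 (580) and B2_con3 (555). The causes of these differences were not tested. The difference in genes detected was 108 to 2009 genes leaving out 1 library, lowest without B1_con4. The log2 fold change of Mmp12 was -4.18 to 0.30 leaving out 1 library, positive without B1_con4, 0.37 without B1_con1 and B1_con4 and 1.60 with quality weights, and that of Elovl6 was -1.88 to 0.12 leaving out 1 library, positive without B1_con1, also 0.12 when the epididymis list was removed with it.

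With the replicate number as a block the counts were 0 and 435. Deviations of same-numbered libraries correlated at 0.00115 to 0.0531 over genes, without a comparison to differently numbered libraries. The sample titles number the normal diet libraries on through both batches, so only the number in the library name is shared.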

Other observations

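Further tissue components and pathways had few genes with an unadjusted p under 0.05 in edgeR's test of all 9 libraries, and none with an FDR under 0.05. Over all genes tested 3.85% were higher and 3.54% lower at that p, so counts of 1 among 8 to 14 genes lie near this share. Of the tested genes, 0 of 11 mesothelial, 0 of 2 skeletal muscle, 0 of 3 Schwann cell, 0 of 5 thermogenic adipocyte, 0 of 19 cholesterol synthesis and 0 of 14 circadian clock genes had such a p, and of the germ cell and exocrine pancreas lists 0 genes were tested. Of 8 red blood cell genes 1 was higher in batch 2, Alas2 of heme synthesis, and of 11 heat shock genes 2 were higher, the mitochondrial chaperones Hspd1 and Hspe1. Of 14 interferon response genes 1 was higher, Stat2, and of 14 adipokines Cfd and Rbp4 were higher and Lcn2 lower. Of 9 cell cycle genes Cdc20 was higher and Mki67 lower.

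The red blood cell list was at 3043 CPM in B1_con1 and 8379 to 17105 CPM in the other 8 libraries. The mesothelial list was at 60.8 CPM in B1_con4 and 89.8 to 261 CPM in the others, and the exocrine pancreas list was at 0.144 CPM or less in every library. Within batch 2, B2_con4 was also the highest for 8 of 12 mesothelial and 10 of 16 interferon response genes.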
